A study of Mus musculus with 8 samples.

Results

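The deacetylase corepressor complexes of this account are represented by 9 genes, Ncor1, Tbl1xr1, Sin3a, Sin3b, Rcor1, Gse1, Mta1, Mta2 and Chd4, chosen by name, and the data are their H3K9ac regions. H3K9ac, acetylation of histone H3 at lysine 9, marks active promoters and enhancers. Of the 11251 regions in the table, 10 carried the name of a member, and they belonged to 8 of the 9 genes. Gse1 had 3 of them, the other 7 genes had 1 each, and no region carried the name Chd4.

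The libraries came from epithelial cells of the terminal ileum in C57Bl/6 mice, wild-type,, 3 given butyrate at 150 mM for 7 days and 3 given vehicle. The mark was measured by chromatin immunoprecipitation and sequencing, and the inputs (2 libraries, 1 from each treatment) are not used here. No label says that the libraries of a group came from separate mice, so a p-value here reflects only how these libraries vary, which may be technical. The level of the mark is given in RPKM, which divides a region's reads by its length in kilobases and by library depth. The 6 libraries held 1255251 to 1828591 reads in regions, and their sums over all regions after division by depth differed by 0.594% (SD). How the depth was set is not given, so a gain or loss shared by all regions may have been scaled away. Every difference below is therefore read as relative to the other regions.

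Histone deacetylases do not bind DNA by themselves. They act within complexes in which a scaffold protein joins them to transcription factors. NCOR1 holds HDAC3 together with the WD-repeat protein TBL1XR1. SIN3A and SIN3B are alternative scaffolds for HDAC1 and HDAC2. RCOR1, also called CoREST, joins the same deacetylases to the demethylase KDM1A, and GSE1 is a coiled-coil protein found with that complex. In the NuRD complex, MTA1 or MTA2 holds the deacetylases and CHD4 is the chromatin-remodelling ATPase. Butyrate, which gut bacteria make from fibre, inhibits the deacetylase subunits, and the study compared the histone acetylation of vehicle and butyrate mice.

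All 12 epithelial marker genes checked, among them Vil1, Epcam and Cdx2, had a region within 5 kb of a start site. Their summed level was 58.8 to 61.1 RPKM in vehicle and 56.9 to 62.6 in butyrate libraries. Single markers differed in both directions. Krt20 had means of 2.73 RPKM in vehicle and 3.41 in butyrate, and Cdx1 had 5.78 and 5.13. Of 8 leukocyte markers only Ptprc had one, at 0.672 to 0.930 RPKM in vehicle and 0.558 to 1.35 in butyrate. Of 8 stromal and vessel markers only Vim did, at 0.593 to 1.98 RPKM in vehicle and 0.656 to 1.03 in butyrate. Cd3e, Cd79a, Col1a1 and Pecam1 were among those with no such region. In these bulk samples, fewer cells with the mark and less of the mark per cell cannot be told apart.

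Sequences are shown for the Gse1 region with the widest difference between groups, for the Ncor1 start region, and for 2 pairs of alternative subunits, Sin3a with Sin3b and Mta1 with Mta2. They are read from the RefSeq copy of GRCm38.p6, the same build as mm10, on the strand of the gene, 5′ to 3′. None of them holds an annotated exon base of its gene, and the Gse1 and Ncor1 stretches lie inside the gene. Capitals mark matches on either strand to 3 common promoter motifs. The GC box was searched as GGGCGG. The TATA box was searched as TATAAA. The remaining one was the CCAAT box, searched by those 5 letters. The Gse1 stretch is the first 184 bases of that region, at chr8:120536025-120536208, and the Ncor1 stretch, at chr11:62457807-62458056 on the minus strand, lies before the GENCODE start site at 62457806. The others are at chr9:57071790-57071990 (Sin3a), chr8:72723020-72723269 (Sin3b), chr12:113098028-113098247 (Mta1) and chr19:8941670-8941874 (Mta2), all on the plus strand.
Gse1 internal region: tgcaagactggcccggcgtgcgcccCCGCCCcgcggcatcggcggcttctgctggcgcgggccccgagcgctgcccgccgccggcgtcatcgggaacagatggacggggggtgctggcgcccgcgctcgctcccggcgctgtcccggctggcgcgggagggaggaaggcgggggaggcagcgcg
Ncor1: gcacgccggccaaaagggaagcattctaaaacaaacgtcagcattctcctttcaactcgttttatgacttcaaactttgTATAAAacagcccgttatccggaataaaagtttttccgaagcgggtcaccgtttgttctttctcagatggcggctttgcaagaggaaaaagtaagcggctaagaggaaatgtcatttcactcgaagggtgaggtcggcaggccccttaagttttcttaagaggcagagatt
Sin3a: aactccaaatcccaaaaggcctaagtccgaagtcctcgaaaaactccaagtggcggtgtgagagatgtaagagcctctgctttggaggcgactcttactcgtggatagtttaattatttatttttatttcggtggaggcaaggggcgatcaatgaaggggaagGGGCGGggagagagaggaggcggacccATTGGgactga
Sin3b: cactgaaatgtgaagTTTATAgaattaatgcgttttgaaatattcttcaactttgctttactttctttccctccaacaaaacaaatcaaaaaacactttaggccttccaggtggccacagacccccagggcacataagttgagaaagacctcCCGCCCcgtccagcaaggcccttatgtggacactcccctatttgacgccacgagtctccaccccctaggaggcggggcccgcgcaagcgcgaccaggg
Mta1: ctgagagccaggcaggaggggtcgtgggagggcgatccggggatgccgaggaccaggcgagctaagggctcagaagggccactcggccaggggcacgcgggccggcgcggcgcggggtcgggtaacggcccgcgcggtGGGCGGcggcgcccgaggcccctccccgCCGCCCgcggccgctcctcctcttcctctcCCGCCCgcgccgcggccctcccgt
Mta2: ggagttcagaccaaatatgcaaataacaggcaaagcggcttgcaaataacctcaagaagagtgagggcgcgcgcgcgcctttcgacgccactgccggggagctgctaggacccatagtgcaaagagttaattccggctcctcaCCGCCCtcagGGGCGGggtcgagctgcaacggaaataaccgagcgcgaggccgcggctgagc

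The Gse1 stretch was 80.4% G and C with 30 CpG sites, the Mta1 stretch 80% with 33. By contrast the Ncor1 stretch was 44.8% G and C with 13 CpG sites, and it held 1 TATAAA match and no GC box. Sin3b also had 1 TATAAA match, and Sin3a had 1 CCAAT match, the only one in the 6 stretches. A GC box match was present in each of the other 5, with 3 in Mta1, 2 in Mta2 and 1 in Sin3a, Sin3b and the Gse1 region. Among 32851 promoters of 250 bases in the RefSeq table, 32.7% held a GC box, 33.8% a CCAAT box and 12.4% a TATA box match. The shorter stretches here have less room for a match. Searches for an E-box (CACGTG), the palindromic NRF1 motif and an ETS motif (CCGGAAG), which 6.02%, 0.782% and 6.91% of promoters held, gave no match in the 6 stretches. These matches describe the letters and name no bound factor.

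Over the whole start regions, the 8 members with a region of their name lay on the CpG-rich side of the table, which also holds regions away from start sites. The start regions of the 8 genes were 49.1% to 74.0% G and C, where the median of all regions was 52.2%. Their ratio of observed to expected CpG ran from 0.658 at Mta2 to 0.818 at Gse1, above the median of 0.588 in all 8. The region over the Chd4 start, which carries the name Mir7045, had a ratio of 0.573, below that median. The 500 bp region inside Gse1 had a ratio of 0.910, higher than 95.2% of the table.

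H3K9ac stood at the start sites of the 8 members with a region of their name in both groups. The Chd4 start, in a region of another name with a mean of 5.54 RPKM, is described below and left out of this order. The highest level was at Sin3b, with a mean of 6.90 RPKM over the 6 libraries, followed by Ncor1 at 6.08, Rcor1 at 5.74, Mta1 at 5.22 and Mta2 at 4.70. Gse1 (3.91), Tbl1xr1 (3.68) and Sin3a (3.09) were the lowest of the start regions. The mean of the first, Sin3b, was higher than 98.1% of all regions, whereas Sin3a lay near the middle of the table. Neighbours in this order overlapped in every case across their libraries. Sin3b and Sin3a did not, with 5.55 RPKM in the lowest Sin3b library and 3.98 in the highest Sin3a library. The Gse1 region at the internal start lay below all of these, with a mean of 1.28 RPKM. The Gse1 region beside it had a mean of 3.40 RPKM, between Tbl1xr1 and Sin3a.

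**Figure D1:**
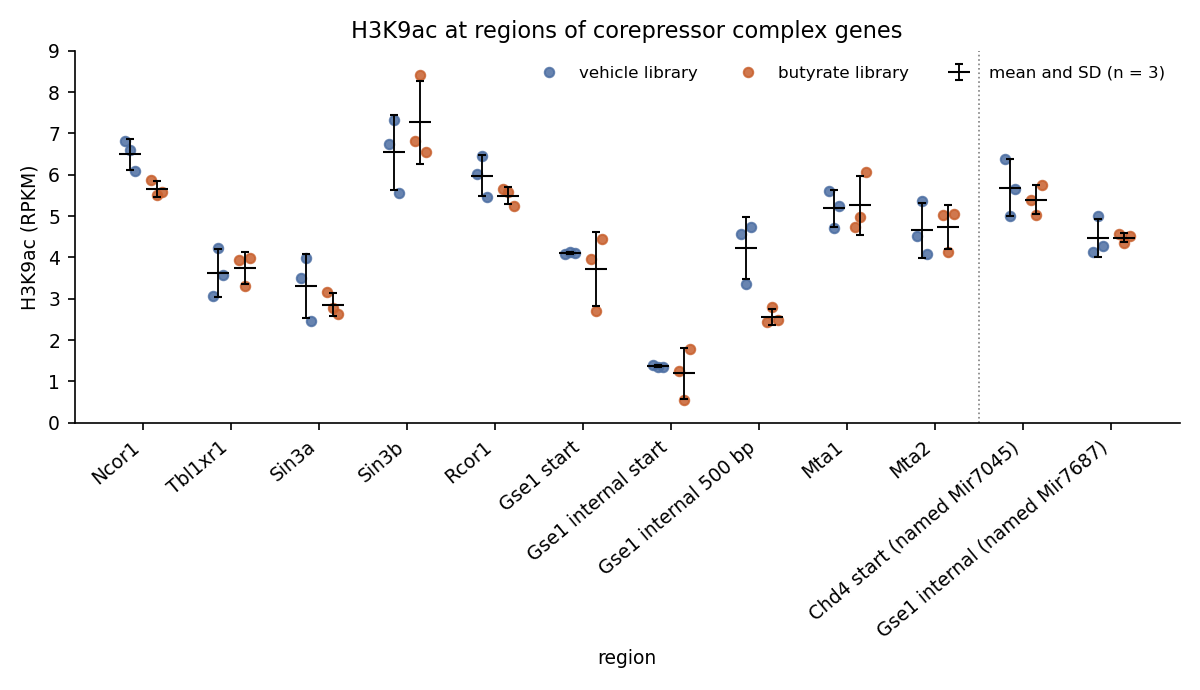
H3K9ac in RPKM in each library at the 10 regions that carry a member's name and, right of the dotted line, 2 regions that overlap a member under a microRNA's name; points are libraries, bars the mean and SD of 3. Vehicle and butyrate points separate at Ncor1 and at the 500 bp region inside Gse1 and overlap at the others.

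By limma on log2(RPKM + 1) with Benjamini-Hochberg adjustment over 10529 regions, 0 of the 10 member regions passed an adjusted p of 0.05, and over all regions the share that passed was 0%. An unadjusted limma p under 0.05 was found at 2 of the 10, Gse1 and Ncor1, both lower with butyrate, where 7.27% of all tested regions had one, 3.91% lower and 3.35% higher. The groups did not overlap at the same 2 regions, against 13% of all tested regions, 6.85% lower and 6.11% higher. With voom on the reads recovered from RPKM, at regions of at least 25 mean reads, 0 of 9 member regions passed and 2 had an unadjusted p under 0.05, beside 0.0995% and 8.3% of all regions. The median log2 fold change of the 10 was -0.12 (0.00 over all tested regions), with 6 lower and 4 higher. For the 8 start regions alone it was -0.04, with 4 in each direction.

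**Figure D2:**
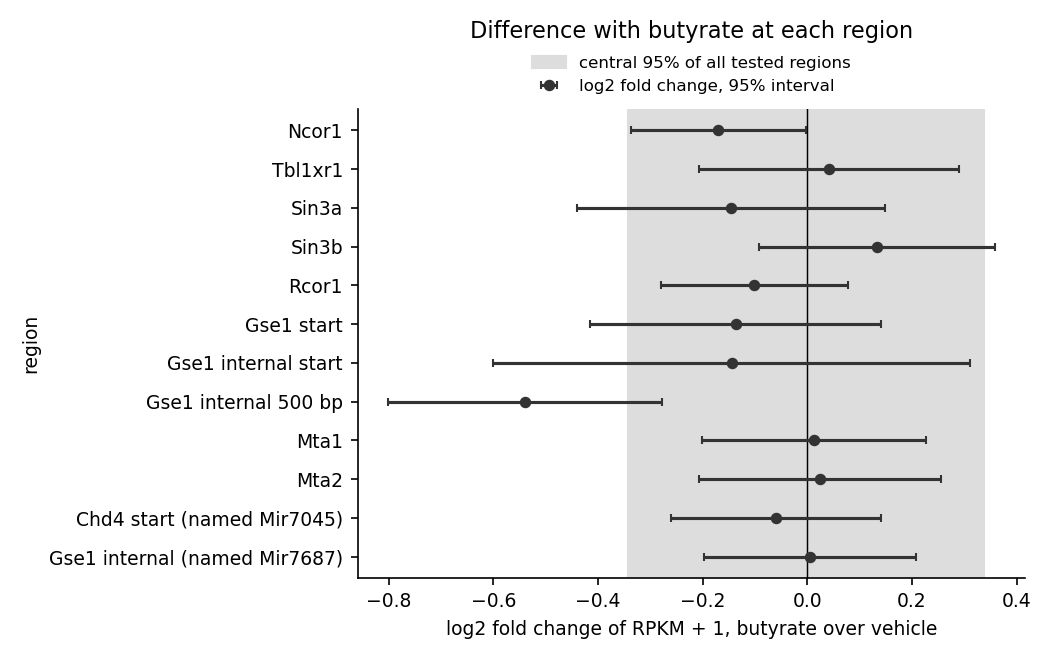
The log2 fold change of RPKM + 1, butyrate over vehicle, with its 95% interval from limma for each region; grey spans the central 95% of all tested regions (-0.34 to 0.34). The value for the 500 bp region inside Gse1 (-0.54) lies outside that span and all the others lie inside it.

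Ncor1, the scaffold of the HDAC3 complex, had 6.81, 6.60 and 6.08 RPKM in vehicle and 5.88, 5.51 and 5.59 in butyrate. Every butyrate library was below every vehicle library, and the closest were vehicle library S3 and butyrate library S4. The region (chromosome 11, 62454815 to 62459680, mm10) was 4865 bp long with 628 reads on average. It covered 4 start sites of Ncor1 in GENCODE and also the start of Pigl, a gene of GPI anchor synthesis read from the opposite strand, so the value cannot be assigned to 1 of the 2 genes. The means were 6.50 ± 0.37 and 5.66 ± 0.20 RPKM (SD, n = 3 each). On the log2(RPKM + 1) scale the difference was -0.17 ± 0.08 (SE), with a 95% interval of -0.34 to -0.0033, an unadjusted limma p of 0.046 and a limma adjusted p of 0.67. By voom it was -0.20 with an adjusted p of 0.43, and in the authors' deposited table -0.20 with an FDR of 0.333. When a library was left out, the unadjusted limma p ran from 0.031 to 0.15.

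Tbl1xr1, the partner of NCOR1 in that complex, had 3.07, 4.22 and 3.59 RPKM in vehicle and 3.94, 3.31 and 3.98 in butyrate. The groups overlapped throughout. The region (chromosome 3, 22076430 to 22078237) covered 7 GENCODE start sites, the first exon and part of the first intron. The difference, as log2, was 0.04 ± 0.11 (SE; 95% interval -0.21 to 0.29; limma adjusted p 0.95).

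The genes of the alternative SIN3 scaffolds had values in opposite directions, and the groups overlapped at both. Sin3a had 3.51, 3.98 and 2.46 RPKM in vehicle and 3.17, 2.78 and 2.63 in butyrate, and the lowest of the 6 values was a vehicle library. Sin3b had 6.74, 7.33 and 5.55 RPKM in vehicle and 6.82, 8.42 and 6.55 in butyrate, again with the groups overlapping. The Sin3a region (chromosome 9, 57071225 to 57073170) held the Sin3a start and that of the antisense RNA Gm10658. The Sin3b region (chromosome 8, 72723008 to 72724560) held 4 start sites of Sin3b and no other gene's. Log2 fold changes were -0.15 ± 0.14 for Sin3a and 0.13 ± 0.10 for Sin3b (SE), with limma adjusted p of 0.83 and 0.79. Single libraries set the size of both values. The Sin3a value was -0.04 without vehicle library S2 and -0.30 without S3. For Sin3b it was 0.03 without vehicle library S3, 0.04 without butyrate library S5 and 0.21 without vehicle library S2. The log2 difference between Sin3a and Sin3b was -0.78, -0.74 and -0.92 in vehicle and -0.91, -1.32 and -1.06 in butyrate. Its mean moved from -0.81 ± 0.09 to -1.09 ± 0.21 (SD, n = 3 each; exact permutation p = 0.2, two-sided, 0.4 adjusted over the 2 pairs of alternative subunits compared, where the smallest p that 3 against 3 libraries allow is 0.1).

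Rcor1, the CoREST scaffold gene, had 6.02, 6.45 and 5.46 RPKM in vehicle and 5.66, 5.57 and 5.26 in butyrate. The groups overlapped, with vehicle library S3 below butyrate libraries S4 and S5. The region (chromosome 12, 111037977 to 111041053) held both GENCODE start sites of the gene and averaged 373 reads. The log2 fold change came to -0.10 ± 0.08 (SE; 95% interval -0.28 to 0.08; limma adjusted p 0.80). It was -0.05 without vehicle library S2 and -0.16 without vehicle library S3.

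Gse1 spans chromosome 8, 120228456 to 120581390, and its regions lay at separate places within it. The region named for its upstream RefSeq start, NM_198671 (120487146 to 120489531, 199 mean reads), had 4.09, 4.13 and 4.12 RPKM in vehicle and 3.97, 2.72 and 4.45 in butyrate. The vehicle libraries were nearly equal, and the butyrate libraries lay on both sides of them. Here the log2 fold change was -0.14 ± 0.13 (SE; 95% interval -0.42 to 0.14; limma adjusted p 0.83), and without butyrate library S5 it was 0.02. A 500 bp region at a start site inside the gene, NM_001145897 (120535409 to 120535909), was weak in both groups. It had 1.40, 1.34 and 1.35 RPKM in vehicle and 1.26, 0.558 and 1.78 in butyrate, on 5 to 20 reads per library. Library S5 was the lowest at both of these regions. The log2 fold change of the weak region was -0.14 ± 0.21 (SE; limma adjusted p 0.90), and 0.08 without S5.

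The difference was wider in the next region, 115 bp further on (120536024 to 120536524, 500 bp). There Gse1 had 4.57, 3.36 and 4.74 RPKM in vehicle and 2.43, 2.79 and 2.49 in butyrate. All butyrate libraries lay below all vehicle libraries, and the second vehicle library was the closest to them. These values rested on 59, 30 and 49 reads in vehicle and 27, 25 and 28 in butyrate. The means were 4.22 ± 0.75 and 2.57 ± 0.19 RPKM (SD, n = 3 each), a butyrate to vehicle ratio of 0.609. On the log2(RPKM + 1) scale the difference was -0.54 ± 0.12 (SE; 95% interval -0.80 to -0.28), with an unadjusted limma p of 0.00064 and a limma adjusted p of 0.49. By voom on recovered reads it was -0.72 ± 0.27 (SE), with an adjusted p of 0.38. The authors' deposited table gave -0.73 and an FDR of 0.224. Without 1 library at a time the log2 fold change stayed between -0.66 and -0.47, and the unadjusted limma p was 7.2e-05 to 0.0053. The region lies in an intron of the GENCODE transcripts, with no start site of theirs in it. A predicted RefSeq transcript of Gse1, XM_030243648.1, starts inside it, 352 bp after the NM_001145897 start, and the CpG-rich stretch printed above is the part before that start. The deposited annotation places the region at the end of another transcript, NR_151732, so its value cannot be assigned to Gse1 alone.

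The next region inside Gse1 begins 706 bp after the 500 bp region, and it carries the name of the microRNA gene Mir7687. It covers the GENCODE start of Gse1-202 and the RefSeq start NM_001145896 (120537230 to 120539619, 225 mean reads). It also holds a start site of 1700016A09Rik, and the deposited annotation places it at the start of NR_151732. It had 4.14, 4.996 and 4.27 RPKM in vehicle and 4.56, 4.35 and 4.52 in butyrate, with the butyrate libraries inside the vehicle range. The log2 fold change there was 0.01 ± 0.09 (SE; 95% interval -0.20 to 0.21). Over the 3 neighbouring regions inside Gse1 together, 3389 bp, the level was 3.97 ± 0.22 RPKM with vehicle and 3.71 ± 0.14 with butyrate (SD, n = 3 each). Placed in the limma fit of all regions in the place of the 500 bp region, their sum had a log2 fold change of -0.08 ± 0.09 (SE; unadjusted limma p 0.42). Of the reads in these 3 regions, the 500 bp region took 17.8%, 11.8% and 17.9% in vehicle and 9.54%, 11.6% and 9.62% in butyrate. Its share was thus higher in every vehicle library than in any butyrate library. The log2 ratio of its RPKM to that of the Mir7687 region moved from -0.09 ± 0.41 to -0.80 ± 0.14 (SD, n = 3 each). The sum, the share and the ratio were chosen after the difference at the 500 bp region had been seen. The share and the ratio restate that difference in part and are given as descriptions, with no test.

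**Figure D3:**
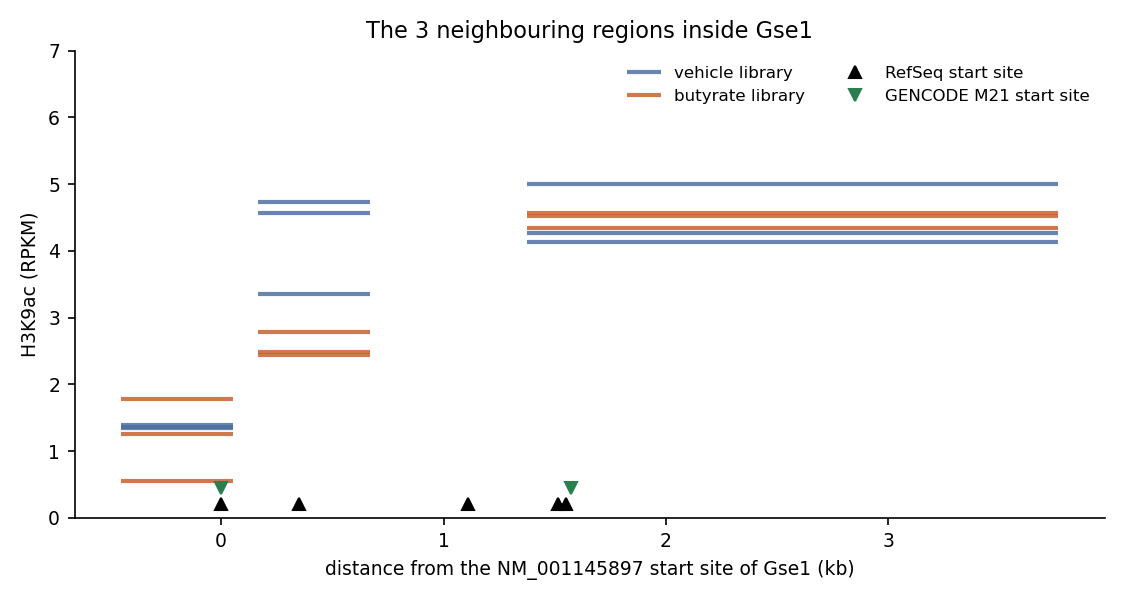
H3K9ac in RPKM of each library over the 3 neighbouring regions inside Gse1, by distance from the NM_001145897 start site in kb; each line spans its region, and triangles mark RefSeq and GENCODE start sites. Vehicle lines (3.36 to 4.74) lie above butyrate lines (2.43 to 2.79) in the middle region, and the groups overlap in the regions on both sides.

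The NuRD subunit genes showed no separation. Mta1 had 5.60, 4.71 and 5.25 RPKM in vehicle and 4.73, 4.98 and 6.07 in butyrate, and Mta2 had 4.51, 5.37 and 4.08 in vehicle and 5.02, 4.13 and 5.06 in butyrate. The groups overlapped in both. The log2 fold changes were 0.01 ± 0.10 for Mta1 (chromosome 12, 113098026 to 113099417) and 0.02 ± 0.11 for Mta2 (chromosome 19, 8941250 to 8944086; SE), with limma adjusted p of 0.99 and 0.97. Their 95% intervals, -0.20 to 0.23 and -0.21 to 0.26, leave room for changes of that size in either direction. The log2 difference of Mta1 from Mta2 was 0.13 ± 0.25 with vehicle and 0.12 ± 0.17 with butyrate (SD, n = 3 each; exact permutation p = 1, adjusted p = 1).

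Chd4, the ATPase of NuRD, had no region of its own name because its start lies within a region named after the microRNA gene Mir7045. That region (chromosome 6, 125095838 to 125098266, 288 mean reads) covers 4 of the 7 GENCODE start sites of Chd4. It had 6.38, 5.01 and 5.66 RPKM in vehicle and 5.40, 5.04 and 5.74 in butyrate, a mean of 5.54 that was higher than 93.0% of all regions. The groups overlapped, and the log2 fold change was -0.06 ± 0.09 (SE; 95% interval -0.26 to 0.14; limma adjusted p 0.90).

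The spread of log2 fold changes in the whole table narrowed with the reads behind a region. Its SD was 0.21 over 1360 regions of 25 to 50 mean reads, 0.12 over 5080 regions of 100 to 400, and 0.09 over 190 regions of 500 to 1000. The 500 bp region of Gse1, with 36.3 mean reads, belongs to the first of these, and Ncor1, with 628, to the last. The other members except the weak Gse1 region had 127 to 373 mean reads and log2 fold changes between -0.15 and 0.13.

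**Figure D4:**
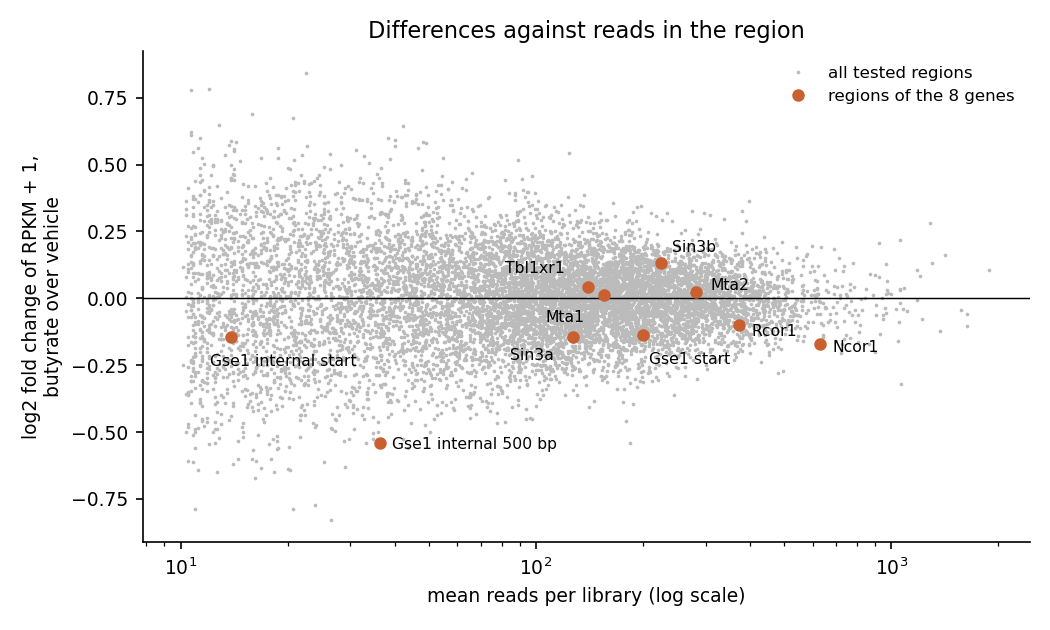
The log2 fold change of RPKM + 1, butyrate over vehicle, against mean reads per library on a log axis; grey points are all 10529 tested regions and orange points the 10 regions of the 8 genes. The 500 bp region inside Gse1 lies at -0.54 among regions with few reads, and the start regions lie between -0.17 and 0.13.

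Likeness of profile was measured as Pearson's r of log2(RPKM + 1) over the 6 libraries, among 5339 start regions of other genes with at least 100 mean reads, for the member start regions that ranked first by p, 1 lower and 1 higher. For Ncor1 the highest values were at Fermt1, the integrin adaptor kindlin-1, with an r of 0.996, and Pgam1, a glycolytic mutase, with 0.993. Fermt1 had means of 3.75 RPKM in vehicle and 3.04 in butyrate, and Pgam1 2.45 and 2.16. For Sin3b they were at Zcchc9 (0.985) and Golga2, a Golgi matrix protein (0.982). With 6 libraries and this many regions, such values describe the ranking and carry no test.

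The other genes of these complexes were followed at the 1 region nearest to a start site, 52 genes in 6 groups by complex, of which 43 had a region under their name. Of the 43, 22 had a positive and 21 a negative log2 fold change (median 0.01), and 0 passed an adjusted p of 0.05 by limma. An unadjusted limma p under 0.05 was found at 4 of them (2 in each direction, 7.27% of all regions), and the groups did not overlap at 7, 4 higher and 3 lower (13% of all regions). Both counts are near what the whole table gave. By voom 0 of the 40 with at least 25 mean reads passed. Of the 9 genes with no region of their name, Sap18 and Gatad2b had a start site inside a region named for a microRNA gene, Mir3077 and Mir7012.

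Among the deacetylases and the histone-binding proteins RBBP4 and RBBP7 that accompany HDAC1 and HDAC2, all 5 genes had a region. Hdac1 had 3.07 ± 0.16 RPKM with vehicle and 3.28 ± 0.76 with butyrate, Hdac2 5.04 ± 0.69 and 5.37 ± 0.45, and Hdac3 2.17 ± 0.17 and 2.29 ± 0.13 (SD, n = 3 each). Their log2 fold changes were 0.06, 0.08 and 0.05. Rbbp4 had 3.82 ± 0.18 and 3.53 ± 0.67 RPKM. Rbbp7 had 4.18 ± 0.79 and 3.03 ± 0.34 RPKM on 38.2 mean reads, and no butyrate library reached a vehicle library. Its log2 fold change of -0.36 ± 0.12 (SE) had an unadjusted limma p of 0.012 and a limma adjusted p of 0.57.

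In the NCoR group, 2 genes had a positive and 2 a negative log2 fold change. Cops2, a signalosome subunit that binds NCOR1, had 4.30 ± 0.36 RPKM in vehicle and 5.20 ± 0.22 in butyrate, without overlap of the groups (log2 fold change 0.23 ± 0.09, SE; limma adjusted p 0.64). Tbl1x, the X-linked paralogue of Tbl1xr1, had 2.85 ± 0.18 and 2.57 ± 0.14, and Gps2, an intrinsic subunit of the complex, 5.41 ± 0.92 and 5.33 ± 0.33. Cops2 was the 1 gene of the 4 in the group with an unadjusted limma p under 0.05, against 7.27% of all tested regions, and with 4 genes nothing is read from that count.

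Of the 15 Sin3 complex genes with a region, 10 had a positive and 5 a negative value, with a median log2 fold change of 0.04. Brms1l, a subunit of the SIN3 complex, had 3.18 ± 0.43 RPKM in vehicle and 3.94 ± 0.31 in butyrate, without overlap (log2 fold change 0.24 ± 0.11, SE; limma adjusted p 0.67). Arid4b, an ARID-domain subunit, had 5.55 ± 0.28 and 5.99 ± 0.25 RPKM. Among the negative values were Max, the partner of the MXD repressors, with -0.05 ± 0.11, and Sap30l with -0.03 ± 0.10 (SE).

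In the CoREST group 4 of 11 genes had a positive and 7 a negative log2 fold change, with a median of -0.03. Kdm1a, the demethylase of the complex, had 4.11 ± 0.19 RPKM in vehicle and 4.78 ± 0.42 in butyrate, and Phf21a, a subunit that binds unmethylated lysine 4 of histone H3, 3.91 ± 0.11 and 4.37 ± 0.21. In both genes every butyrate library was above every vehicle library, with limma adjusted p of 0.71 and 0.76. Ctbp2, a corepressor that recruits the complex, was the other way round, with 5.78 ± 0.55 and 4.88 ± 0.18 RPKM and no overlap (log2 fold change -0.20 ± 0.09, SE; limma adjusted p 0.66).

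Of the 5 other NuRD genes with a region, 3 had a positive and 2 a negative value, and the groups overlapped in all 5. Chd3, the paralogue of Chd4, had 7.30 ± 1.7 RPKM in vehicle and 8.19 ± 0.60 in butyrate, and Mta3 7.99 ± 0.24 and 8.35 ± 0.14. The Mta3 level was above those of Mta1 and Mta2 in both groups. Mbd2, which binds methylated CpG, had 4.30 ± 0.57 and 3.94 ± 0.25 RPKM, and Cdk2ap1 6.46 ± 0.97 and 6.02 ± 0.19. The 3 genes of the mitotic deacetylase complex MiDAC all had negative log2 fold changes, as had 5261 of all 10529 tested regions. With 3 genes nothing is read from that count, and Trerf1 rested on 14 mean reads. The MiDAC scaffold subunit gene Dnttip1 had 5.74 ± 0.35 and 4.97 ± 0.37 RPKM without overlap (-0.17 ± 0.09, SE; limma adjusted p 0.70), and Elmsan1 had 3.93 ± 0.25 and 3.71 ± 0.55.

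**Figure D5:**
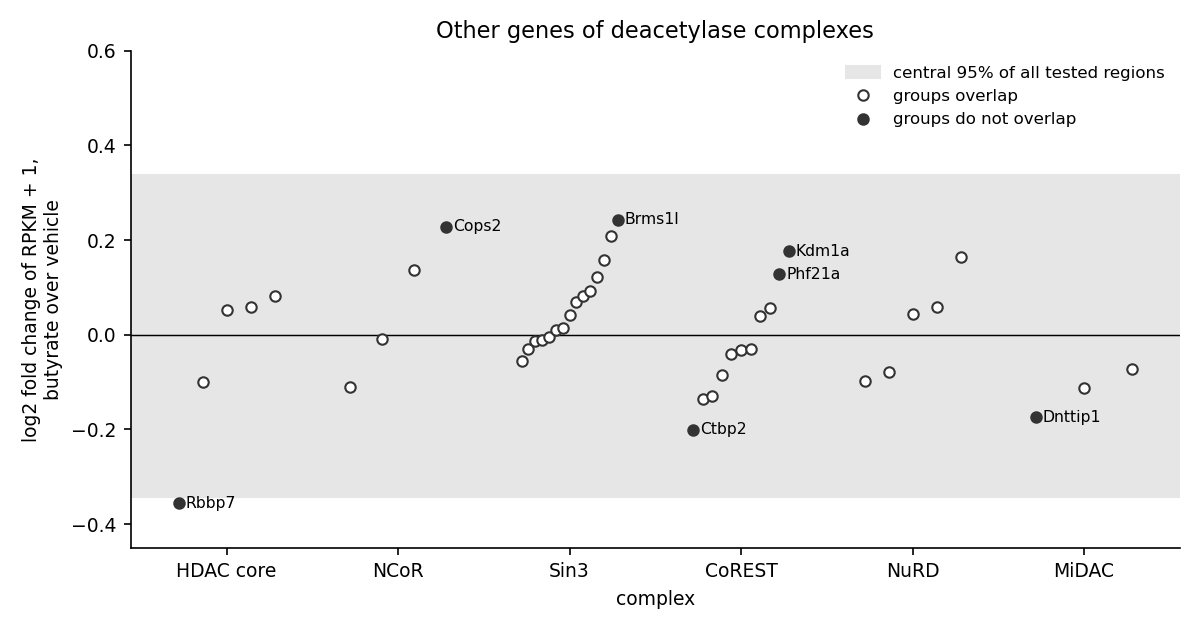
The log2 fold change of RPKM + 1, butyrate over vehicle, at 1 region per gene for 43 other genes of deacetylase complexes, by complex; filled points with a name are genes whose groups do not overlap, and grey spans the central 95% of all tested regions. Rbbp7 (-0.36) is the gene outside the grey span, and the highest value is that of Brms1l (0.24).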

How the data were processed

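The series measured H3K9ac by chromatin immunoprecipitation with a Millipore antibody, and per the labels' protocols ThruPLEX libraries were sequenced on a NovaSeq as paired ends of 100 bp. STAR, Picard, HOMER, edgeR and build mm10 appear in the submitters' processing notes, without versions. The way regions were called and counted is not given in the sources used here. The deposited table gives RPKM per library and, as the authors' own values, group means of RPKM and of CPM, a log2 fold change, a log2 CPM, a p-value and an FDR, per the file headers.

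Column names gave each library's group and no sample; S1 to S3 are vehicle and S4 to S6 butyrate. In each library, 100% of the values of RPKM times region length were whole multiples of the worth of 1 read (tolerance 0.01 reads), and reads were recovered from them. The main test was limma 3.58.1 (R 4.3.3) on log2(RPKM + 1), trended and robust, with Benjamini-Hochberg adjustment over 10529 regions; 722 regions with a mean RPKM under 1 were left out. The pseudocount understates fold changes of weak regions. The fits were tested on simulated data. Voom fits of the recovered reads were alternatives, with other scalings, filters and pseudocounts and each library left out. Single values were compared by exact permutation. The members and gene lists were chosen with earlier results of these data known. Named are all member regions, the deacetylase and RBBP genes, and in the other lists the 2 genes with the smallest p in each direction. Some genes that this rule names are not reported here. Start sites are from GENCODE M21 and RefSeq; all 9 members matched the RefSeq promoter table.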

Additional observations from a re-analysis of the deposited data

How the results depend on the processing

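Among member regions 0 passed an adjusted p of 0.05 under each alternative run, including a threshold of 0.1 and the addition, chosen after seeing the data, of the Mir7045 and Mir7687 regions; among the other complex genes 0 passed as well. Over all regions, limma on log2(RPKM + 1) called 0, with 765 at an unadjusted p under 0.05, while voom on recovered reads called 9 at regions of at least 25 mean reads and 16 with all regions. Of 159 refits of a member's log2 fold change 151 kept their direction. The 8 that turned all came from leaving out 1 library. Tbl1xr1 ran from -0.048 (without S1) to 0.13, the Gse1 start from -0.25 to 0.025 and the weak Gse1 region from -0.33 to 0.084 (both highest without S5). Mta1 ran from -0.078 to 0.073, turning to -0.04 without S2 and -0.078 without S6, and Mta2 from -0.051 to 0.11, turning to -0.051 without S3, -0.01 without S4 and -0.02 without S6. Sin3a ran from -0.30 to -0.04, Sin3b from 0.03 to 0.21 and Rcor1 from -0.16 to -0.05. The 500 bp region of Gse1 ran from -0.66 to -0.47, and summing the reads of its neighbours, chosen after seeing the data, gave -0.08. The weak Gse1 region has no value with a mean RPKM of at least 2 or with voom at 25 reads. No paired analysis was possible because the columns carry no replicate numbers that match the labels. The cause of these changes was not tested beyond the samples or regions each alternative takes away.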
